A study of Rattus norvegicus with 12 samples.

Results

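Interferon-stimulated genes were followed in rat kidney after ischemia-reperfusion injury (IRI), in which the blood supply of the organ is interrupted and then restored. They are the 42 genes of a written list of antiviral effectors, RNA sensors, ISG15 and ubiquitin enzymes, interferon regulatory factors, interferon-inducible GTPases, and genes of the immunoproteasome and peptide loading. A gene was taken where a row of the array was annotated with its symbol alone, which held for 40 of the 42 among 18166 genes tested. Bst2 and Eif2ak2 were not analysed here. The RNA sensor Rig1 is also known as Ddx58.

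The 4 groups were anti-miR-182 at day 7 after IRI, placebo at day 7, anti-miR-182 at day 2 and placebo at day 2, each with 3 arrays (replicates 1 to 3) of different animals by their titles. Anti-miR-182 is an inhibitor of the microRNA miR-182, and every animal, placebo included, had been through IRI. The strain, age and sex of the rats, the dose and timing of the inhibitor, and what the placebo was are not stated by the labels. Whole kidney tissue was used, so fewer cells of a type and less RNA per cell cannot be told apart.

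Interferons of type I and type III act through receptors, JAK kinases and a complex with STAT2 and IRF9 that binds the interferon-stimulated response element (ISRE). Type II interferon acts mainly through the gamma-activated site (GAS). The genes switched on in this way block viral replication, sense foreign RNA, load peptides on MHC class I and feed back on the pathway. In kidney, injured tubule cells and infiltrating leukocytes can both express them.

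The Pearson correlation of arrays over all genes was 0.978 or more within each group. The median log2 signal of an array over all genes lay between 6.30 and 6.38 at day 7, against 6.42 to 6.57 at day 2. The day 7 arrays held 190 rows with no value on the day 2 arrays, and the labels do not say whether both days were processed together, so day and processing cannot be told apart. A description label speaks of a zero-hour biopsy, while the titles give day 2 or day 7, and the titles were used. The row of the targeted microRNA gene, Mir182, read 5.63, 5.999 and 4.93 under anti-miR-182 and 4.32, 3.97 and 4.75 under placebo at day 7. At day 2 it read 6.42, 6.21 and 6.57 under anti-miR-182 and 4.84, 4.48 and 4.69 under placebo. This row was higher under anti-miR-182, the reverse of a loss of the microRNA, and whether it detects mature miR-182, its precursor or the inhibitor was not tested. The 8 tubule markers that define kidney averaged 3.04 to 3.62 log2 units above the mean of all genes on every array.

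The RefSeq table (GRCr8) holds 250 bases before to 50 bases after the start of 33 of the 40 genes, and these windows were searched for the letters of both elements. The ISRE was searched as GAAA, any 2 bases and GAAA, on both strands, and the GAS as TTCNNNGAA, which reads the same on both strands. The ISRE letters stood in 20 of 33 member promoters (60.6%), against 3.92% of all 33469 promoters of that length in the table. The GAS letters stood in 9 of 33 (27.3%), against 8.87% of all promoters. Promoters are shown for the members whose arrays or differences the results turn on, with the matched letters in capitals.
Oas1a (chr12:41330216-41330515, plus strand): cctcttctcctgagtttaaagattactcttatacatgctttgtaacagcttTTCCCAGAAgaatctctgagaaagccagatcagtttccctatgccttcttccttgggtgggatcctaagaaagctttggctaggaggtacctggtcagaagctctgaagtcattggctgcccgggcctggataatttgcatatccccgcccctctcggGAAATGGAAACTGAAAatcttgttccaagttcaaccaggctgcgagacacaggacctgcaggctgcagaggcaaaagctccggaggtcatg
Oas1b (chr12:41395803-41396102, minus strand): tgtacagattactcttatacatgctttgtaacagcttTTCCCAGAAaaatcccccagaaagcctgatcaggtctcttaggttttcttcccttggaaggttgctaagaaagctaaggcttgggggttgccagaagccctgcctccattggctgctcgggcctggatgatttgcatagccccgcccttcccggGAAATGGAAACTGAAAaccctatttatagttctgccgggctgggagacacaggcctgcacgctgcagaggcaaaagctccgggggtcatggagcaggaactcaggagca
Ifi27 (chr6:128355062-128355361, plus strand): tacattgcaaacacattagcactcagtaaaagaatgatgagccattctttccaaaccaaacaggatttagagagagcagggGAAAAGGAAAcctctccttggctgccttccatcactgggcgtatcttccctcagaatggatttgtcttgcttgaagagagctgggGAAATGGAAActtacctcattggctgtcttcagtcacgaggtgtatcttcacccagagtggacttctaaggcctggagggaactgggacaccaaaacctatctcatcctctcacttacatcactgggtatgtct
Rsad2 (chr6:48788071-48788370, minus strand): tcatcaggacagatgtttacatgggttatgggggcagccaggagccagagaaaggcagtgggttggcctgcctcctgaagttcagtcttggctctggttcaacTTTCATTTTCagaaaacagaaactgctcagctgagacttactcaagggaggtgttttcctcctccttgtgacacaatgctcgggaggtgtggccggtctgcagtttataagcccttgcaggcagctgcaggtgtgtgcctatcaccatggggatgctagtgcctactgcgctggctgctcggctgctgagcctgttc
Gbp5 (chr2:233910749-233911048, plus strand): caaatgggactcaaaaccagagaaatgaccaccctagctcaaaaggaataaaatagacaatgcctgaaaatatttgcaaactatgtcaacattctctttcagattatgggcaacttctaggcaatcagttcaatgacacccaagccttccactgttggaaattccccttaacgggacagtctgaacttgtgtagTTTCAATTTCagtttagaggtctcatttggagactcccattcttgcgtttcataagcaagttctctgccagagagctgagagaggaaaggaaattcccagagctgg
Irf1 (chr10:38417685-38417984, plus strand): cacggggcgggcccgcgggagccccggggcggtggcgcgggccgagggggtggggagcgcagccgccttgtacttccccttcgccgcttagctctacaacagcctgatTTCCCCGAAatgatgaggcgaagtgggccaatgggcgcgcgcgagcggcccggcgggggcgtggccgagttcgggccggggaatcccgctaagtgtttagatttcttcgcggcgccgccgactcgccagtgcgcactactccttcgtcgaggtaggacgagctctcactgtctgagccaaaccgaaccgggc

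The paralogs Oas1a and Oas1b share a GAS match and a pair of ISRE matches that overlap in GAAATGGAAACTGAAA, at positions that begin at -41 from the start in Oas1a and -59 in Oas1b. Ifi27 had separate ISRE matches that begin at -169 and -84, whereas Rsad2 (-147) and Gbp5 (-56) had 1 each. In Irf1 the GAS letters began at -142 and no ISRE match was found in the window. A match of letters is a description of the sequence only. Isg15 and Usp18 had no entry in the promoter table. Several members lie side by side in the RefSeq gene order, with no protein-coding gene between Ifit2 and Ifit3, Rsad2 and Cmpk2, Parp9, Dtx3l and Parp14, or Tap2, Psmb8, Tap1 and Psmb9.

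The first question was whether the inhibitor changed these genes at day 7. Of the members, 0 of 40 passed an adjusted p under 0.05 in limma's moderated test, as did 0% of all genes in either direction. At an unadjusted p under 0.05, 4 members were lower and 0 higher, against 1.66% of all genes lower and 1.61% higher. The differences lay below 0 in 33 of 40 members, against 50.2% of all genes. Their median was -0.12 on the log2 scale, beside -0.00078 over all genes. Without placebo replicate 2, 24 members lay below 0 and the median difference was -0.03. Within a group, the SD between single arrays of the members' median level was 0.156, which is not the error of the median difference. Members lie in shared pathways and share arrays, so these counts are descriptions. For 5 members, Oas1a, Mx2, Rsad2, Ifi27 and Irf9, the 3 anti-miR-182 arrays lay below the 3 placebo arrays, which held for 3.75% of all genes, and no member lay wholly above (3.5% of all genes).

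**Figure D1:**
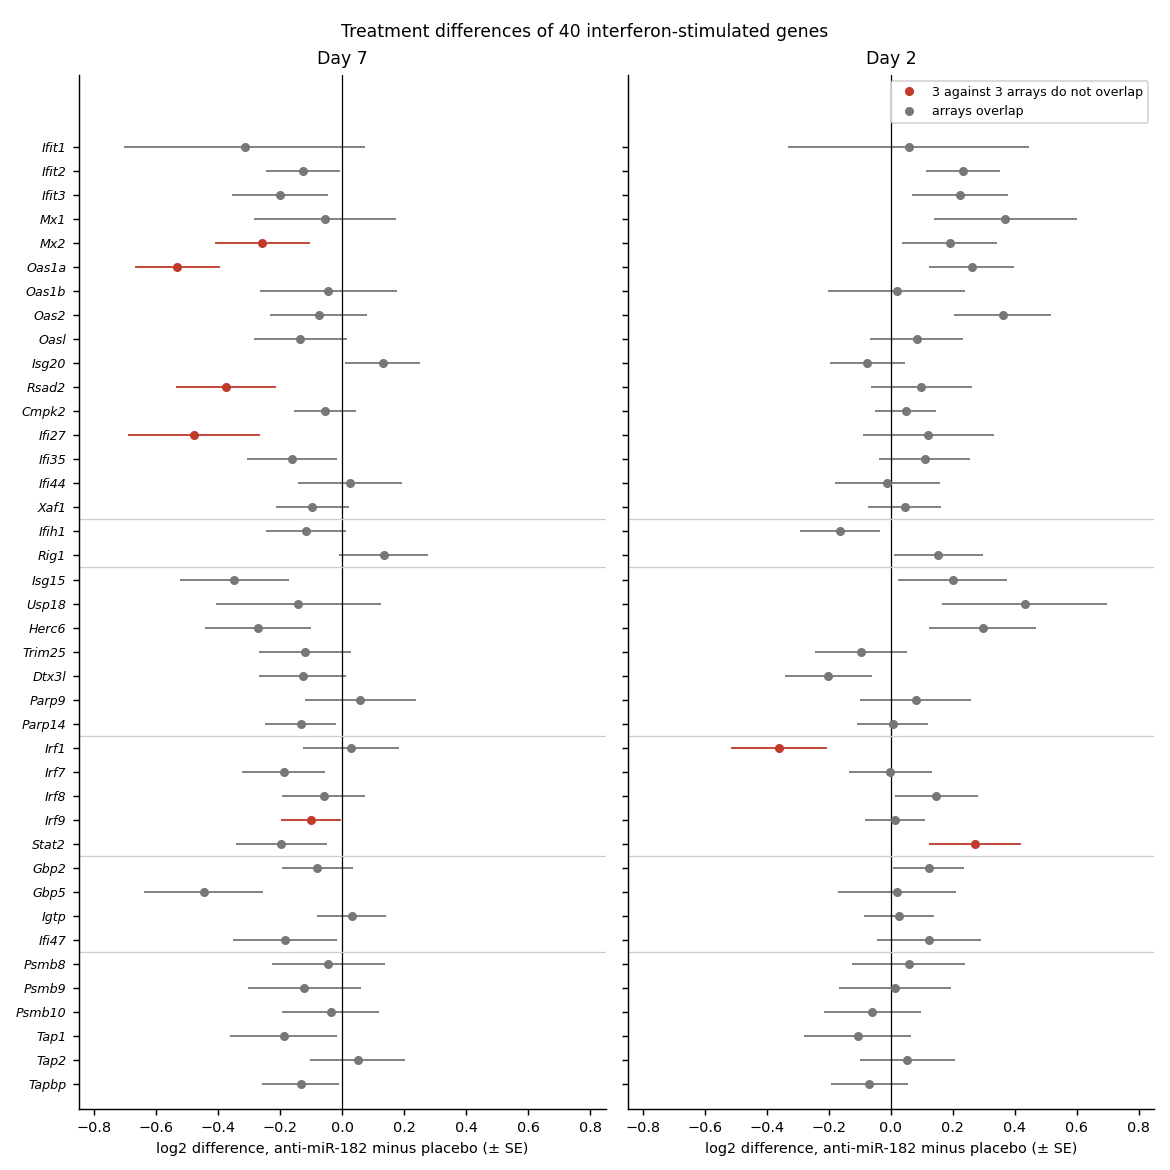
Log2 difference, anti-miR-182 minus placebo, of 40 interferon-stimulated genes at day 7 (left) and day 2 (right), with the standard error of the limma fit as bars and grey lines between functional groups. Red marks members whose 3 anti-miR-182 and 3 placebo arrays do not overlap: 5 members, all lower, at day 7, and Stat2 (higher) and Irf1 (lower) at day 2.

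Among the antiviral effectors, 14 of 16 had differences below 0 at day 7 and 0 passed. Oas1a makes oligoadenylates that activate RNase L. Its log2 signal was 6.20, 6.30 and 6.40 under anti-miR-182, against 6.94, 6.55 and 7.004 under placebo. The groups did not overlap, and the difference was -0.53 ± 0.14 (SE; limma unadjusted p = 0.0017, adjusted p = 0.999). Oas1b, its paralog, read 5.03, 5.65 and 5.93 under anti-miR-182 and 5.39, 5.82 and 5.54 under placebo. These values overlapped and differed by -0.05 ± 0.22. Whether the rows of these paralogs, or those of Mx1 and Mx2, share probes is not given in the sources used here, and their separate values are uncertain to that extent.

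Rsad2 encodes viperin, which makes a chain-terminating nucleotide. It read 6.04, 6.05 and 6.16 under anti-miR-182, against 6.67, 6.46 and 6.24 under placebo. The lowest placebo array was only slightly above the highest anti-miR-182 array, and the difference was -0.38 ± 0.16 (unadjusted p = 0.035). At day 2 it read 6.29, 5.67 and 5.94 under anti-miR-182 and 5.90, 6.06 and 5.65 under placebo, with overlap. Cmpk2, its neighbour and partner in nucleotide supply, differed by -0.06 ± 0.10. Ifi27, a small interferon-induced membrane protein gene, read 9.97, 9.59 and 9.91 under anti-miR-182 and 10.29, 10.60 and 10.02 under placebo. All 3 placebo arrays were above all 3 anti-miR-182 arrays, with a difference of -0.48 ± 0.21 (unadjusted p = 0.041).

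Mx2 and Mx1 encode dynamin-like GTPases that trap viral nucleocapsids. Mx2 read 7.48, 7.23 and 7.46 under anti-miR-182 and 7.81, 7.58 and 7.55 under placebo, a difference of -0.26 ± 0.15. Mx1 read 7.98, 7.34 and 7.64 under anti-miR-182 and 8.005, 7.85 and 7.27 under placebo, so its groups overlapped. The Ifit genes, whose products bind foreign RNA ends, differed by -0.31 ± 0.39 (Ifit1), -0.13 ± 0.12 (Ifit2) and -0.20 ± 0.15 (Ifit3). The Ifit1 value rests on a single placebo array: it read 4.99, 4.71 and 4.95 under anti-miR-182, against 6.52, 4.46 and 4.60 under placebo. Isg20, an antiviral exonuclease, was the effector with the highest difference, 0.13 ± 0.12, from 6.06, 6.39 and 6.18 under anti-miR-182 and 6.04, 5.99 and 6.20 under placebo. Oas2 read 6.21, 6.42 and 6.36 under anti-miR-182 and 6.33, 6.64 and 6.25 under placebo. Ifit2 read 7.56, 7.55 and 7.81 under anti-miR-182, against 7.81, 7.79 and 7.69 under placebo. Both overlapped, and the other effectors, Oas2 included, with Oasl, Ifi35, Ifi44 and Xaf1, had differences between -0.16 and 0.03.

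Neither RNA sensor passed at day 7. Rig1 read 8.32, 8.13 and 8.62 under anti-miR-182, against 8.37, 8.26 and 8.04 under placebo, a difference of 0.13 ± 0.14, or 0.0027 without anti-miR-182 replicate 3. Ifih1, the sensor of long double-stranded RNA, read 8.16, 8.20 and 8.42 under anti-miR-182 and 8.35, 8.30 and 8.47 under placebo, a difference of -0.12 ± 0.13. Both sensors overlapped between treatments.

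Of the ISG15, ubiquitin and ADP-ribose enzymes, 6 of 7 had differences below 0 at day 7 and 0 passed. Isg15, the ubiquitin-like protein itself, read 6.97, 6.48 and 7.03 under anti-miR-182 and 7.39, 7.29 and 6.84 under placebo. Its groups overlapped through placebo replicate 3, and the difference was -0.35 ± 0.18 (unadjusted p = 0.067). It was -0.174 without anti-miR-182 replicate 2. Usp18, which removes ISG15 and damps type I receptor signalling, read 7.34, 6.99 and 7.46 under anti-miR-182, against 7.53, 7.77 and 6.91 under placebo. The -0.14 ± 0.27 of Usp18 stood at 0.04 without placebo replicate 2. A second Usp18 row read 6.63, 6.95 and 6.58 under anti-miR-182 and 6.87, 6.75 and 6.65 under placebo. Herc6, known in mouse as the main ISG15 ligase, read 7.78, 7.61 and 8.11 under anti-miR-182, against 8.13, 8.15 and 8.04 under placebo, a difference of -0.27 ± 0.17. Trim25, a ubiquitin ligase that acts on RIG-I, read 8.34, 8.001 and 8.17 under anti-miR-182 and 8.24, 8.28 and 8.35 under placebo. Trim25, Dtx3l and Parp14 differed by -0.12 ± 0.15, -0.13 ± 0.14 and -0.13 ± 0.11 in that order. Parp9, which works with Dtx3l, read 8.94, 8.93 and 9.19 under anti-miR-182 and 8.59, 9.17 and 9.12 under placebo. Its difference of 0.06 ± 0.18 was -0.13 without placebo replicate 1 and -0.026 without anti-miR-182 replicate 3.

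Transcription factors were close together. Irf9, the DNA-binding subunit of the complex at the ISRE, read 7.08, 7.04 and 7.03 under anti-miR-182 and 7.19, 7.10 and 7.17 under placebo, a difference of -0.10 ± 0.10 that is no larger than its error although the arrays did not overlap. Stat2, its partner, read 7.002, 7.02 and 7.14 under anti-miR-182, against 7.25, 7.56 and 6.94 under placebo. It differed by -0.20 ± 0.15, and Irf7, the amplifier of type I interferon, by -0.19 ± 0.14. Irf1 read 7.71, 7.70 and 7.63 under anti-miR-182 and 7.35, 7.87 and 7.73 under placebo, a difference of 0.03 ± 0.15. Irf8, a factor of myeloid cells, differed by -0.06 ± 0.13, so the 5 factors lay between -0.20 and 0.03.

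Gbp5, a guanylate-binding GTPase of cell-autonomous defence, read 6.52, 6.58 and 7.01 under anti-miR-182, against 7.12, 7.51 and 6.82 under placebo at day 7. The difference was -0.45 ± 0.19 (unadjusted p = 0.034), with overlap through placebo replicate 3. Ifi47 and Gbp2 differed by -0.18 ± 0.17 and -0.08 ± 0.11. Igtp, an immunity-related GTPase, read 7.45, 7.50 and 7.45 under anti-miR-182, against 7.20, 7.56 and 7.55 under placebo, a difference of 0.03 ± 0.11. The immunoproteasome subunits Psmb8, Psmb9 and Psmb10, the peptide transporter subunits Tap1 and Tap2 and their partner Tapbp had differences between -0.19 (Tap1) and 0.05 (Tap2). Tap2 read 6.36, 6.33 and 6.33 under anti-miR-182 and 6.41, 6.14 and 6.32 under placebo.

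**Figure D2:**
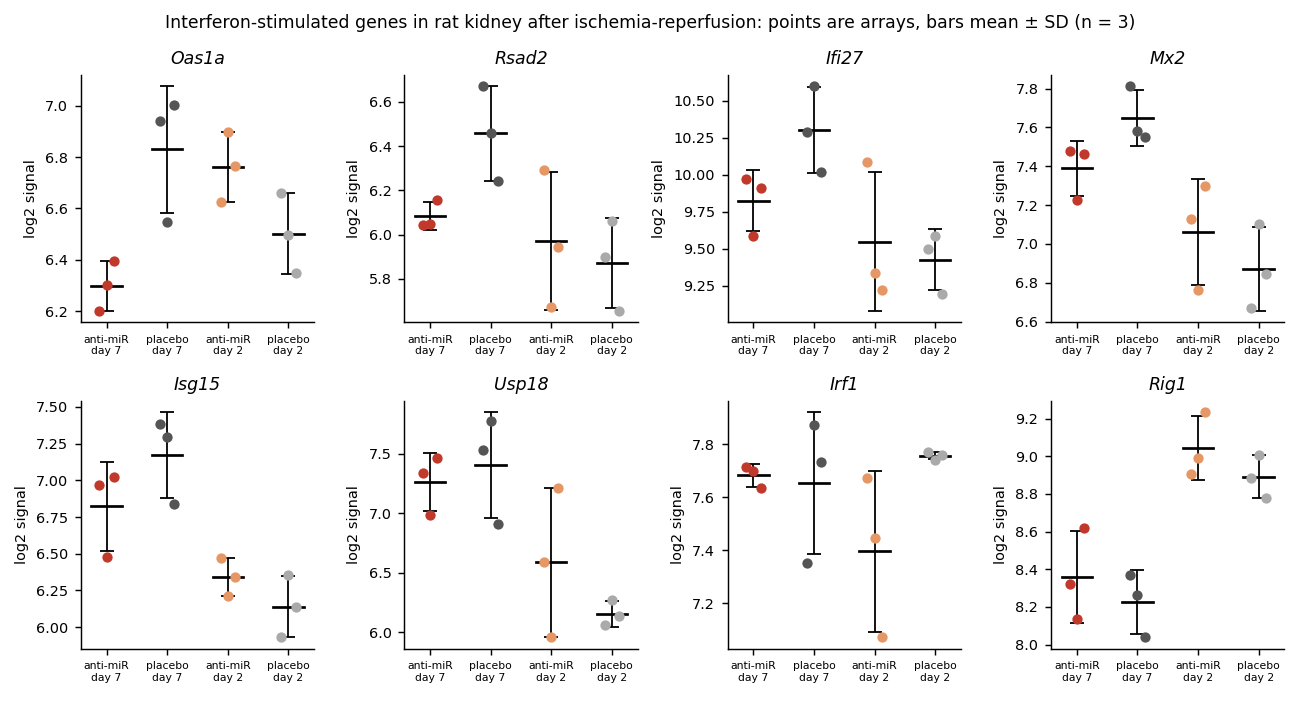
Log2 signal of 8 interferon-stimulated genes on every array, by group from left to right as anti-miR-182 day 7, placebo day 7, anti-miR-182 day 2 and placebo day 2. Points are arrays and bars are mean ± SD (n = 3). Oas1a was lower under anti-miR-182 than under placebo at day 7 without overlap, and Irf1 at day 2, while Isg15 and Usp18 were higher at day 7 than at day 2 in placebo.

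At day 2, 0 of 40 members passed in the comparison of treatments, as did 0% of all genes. At an unadjusted p under 0.05 there was 1 member higher and 1 lower, against 4.2% and 2.41% of all genes. Differences above 0 were found in 30 of 40 members (21 without anti-miR-182 replicate 1), against 58.7% of all genes. Their median was 0.06 beside 0.03 over all genes. The members' median therefore stood 0.02 above that of all genes. Within a group, the SD between single arrays of the members' median level was 0.0974, again not the error of the median difference.

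Oas2, a longer oligoadenylate synthetase, was the member higher at an unadjusted p under 0.05. It read 6.67, 6.11 and 6.39 under anti-miR-182, against 5.99, 6.25 and 5.84 under placebo at day 2. Those groups overlapped, with a difference of 0.36 ± 0.16 (unadjusted p = 0.037, limma adjusted p = 0.75), or 0.222 without anti-miR-182 replicate 1. Stat2 was the member whose 3 anti-miR-182 arrays all lay above the placebo arrays, as for 8.06% of all genes. It read 7.56, 7.24 and 7.18 under anti-miR-182 and 7.07, 7.08 and 7.01 under placebo, a difference of 0.27 ± 0.15, or 0.156 without anti-miR-182 replicate 1. Irf1, a factor induced through the GAS by type II interferon, went the other way, as 4.24% of all genes did without overlap. Its signal was 7.67, 7.44 and 7.07 under anti-miR-182, against 7.77, 7.74 and 7.76 under placebo. The placebo arrays of Irf1 were nearly equal and the anti-miR-182 arrays spread, with a difference of -0.36 ± 0.15 (unadjusted p = 0.035, limma adjusted p = 0.75). It was -0.198 without anti-miR-182 replicate 3.

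Usp18 at day 2 read 6.59, 5.96 and 7.21 under anti-miR-182, against 6.06, 6.27 and 6.13 under placebo. The difference of 0.43 ± 0.27 came with an anti-miR-182 array below every placebo array, and it was 0.12 without anti-miR-182 replicate 3. The second Usp18 row, which was not the row tested, read 6.60, 6.42 and 6.42 under anti-miR-182 at day 2. Under placebo it read 6.06, 6.39 and 6.21, so it was higher under anti-miR-182 without overlap, as were 8.06% of all genes. Mx1 read 7.55, 6.96 and 7.62 under anti-miR-182 and 6.69, 7.28 and 7.05 under placebo, a difference of 0.37 ± 0.23. Herc6 read 8.50, 7.87 and 7.996 under anti-miR-182, against 7.59, 8.001 and 7.89 under placebo. Its difference was 0.30 ± 0.17, or 0.11 without anti-miR-182 replicate 1. Ifit2 read 7.86, 7.57 and 7.69 under anti-miR-182 and 7.60, 7.47 and 7.34 under placebo, a difference of 0.23 ± 0.12. Oas1a read 6.62, 6.90 and 6.77 under anti-miR-182, against 6.66, 6.49 and 6.35 under placebo. This gave 0.26 ± 0.14 for Oas1a, with overlap through 1 array of each group.

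Differences below 0 at day 2 were smaller, apart from Irf1. Dtx3l read 6.78, 6.33 and 6.48 under anti-miR-182 and 6.82, 6.57 and 6.81 under placebo, a difference of -0.20 ± 0.14. Ifih1 read 7.78, 8.18 and 7.93 under anti-miR-182, against 7.96, 8.20 and 8.23 under placebo, a difference of -0.17 ± 0.13. Trim25 read 8.23, 8.56 and 7.91 under anti-miR-182 and 8.29, 8.28 and 8.42 under placebo. The wide spread of Trim25 under anti-miR-182 left its sign to single arrays. Isg20 differed by -0.08 ± 0.12, and the 6 genes of the immunoproteasome and peptide loading lay between -0.11 and 0.06. Parp9 read 9.12, 8.53 and 8.74 under anti-miR-182, against 8.75, 8.51 and 8.88 under placebo. Tap2 read 6.18, 6.46 and 5.84 under anti-miR-182 and 6.33, 6.09 and 5.90 under placebo. Igtp read 7.62, 7.61 and 7.58 under anti-miR-182, against 7.55, 7.64 and 7.54 under placebo. All 3 of these overlapped between treatments.

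Over both days together 0 of 40 members passed, as did 0.0055% of all genes (1 gene, not a member). The mean difference was below 0 in 24 members, against 44.5% of all genes, with a median of -0.03 beside 0.01 over all genes. The difference between the treatment effects of day 7 and day 2 was tested as an interaction, and 0 members and 0% of all genes passed. It lay below 0 in 33 of 40 members, against 55.5% of all genes. At an unadjusted p under 0.05, 4 members were lower, namely Oas1a, Herc6, Stat2 and Isg15, against 2.7% of all genes. Oas1a had -0.79 ± 0.19 (limma unadjusted p = 0.0011, adjusted p = 0.999). A treatment effect that differs between days was thus not shown for any member.

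The members' levels on single arrays showed where the shifts lay. At day 7 the anti-miR-182 replicates 1, 2 and 3 held the highest value of 0, 1 and 4 members. Placebo replicate 2 was the highest for 20 members (50%), against 18.7% of all genes. These included Gbp5 and the other 3 GTPases and 5 of the 6 genes of the immunoproteasome and peptide loading. Ifi47, for example, read 8.65, 9.28 and 8.52 under placebo, and Psmb9 read 7.24, 7.98 and 7.30. Placebo replicate 1 was the highest for 9 members, among them Ifit1, Ifit2, Ifit3, Mx1, Mx2, Rsad2 and Isg15, against 12.2% of all genes. At day 2, anti-miR-182 replicate 1 was the highest for 19 members (47.5%), against 22.2% of all genes.

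**Figure D3:**
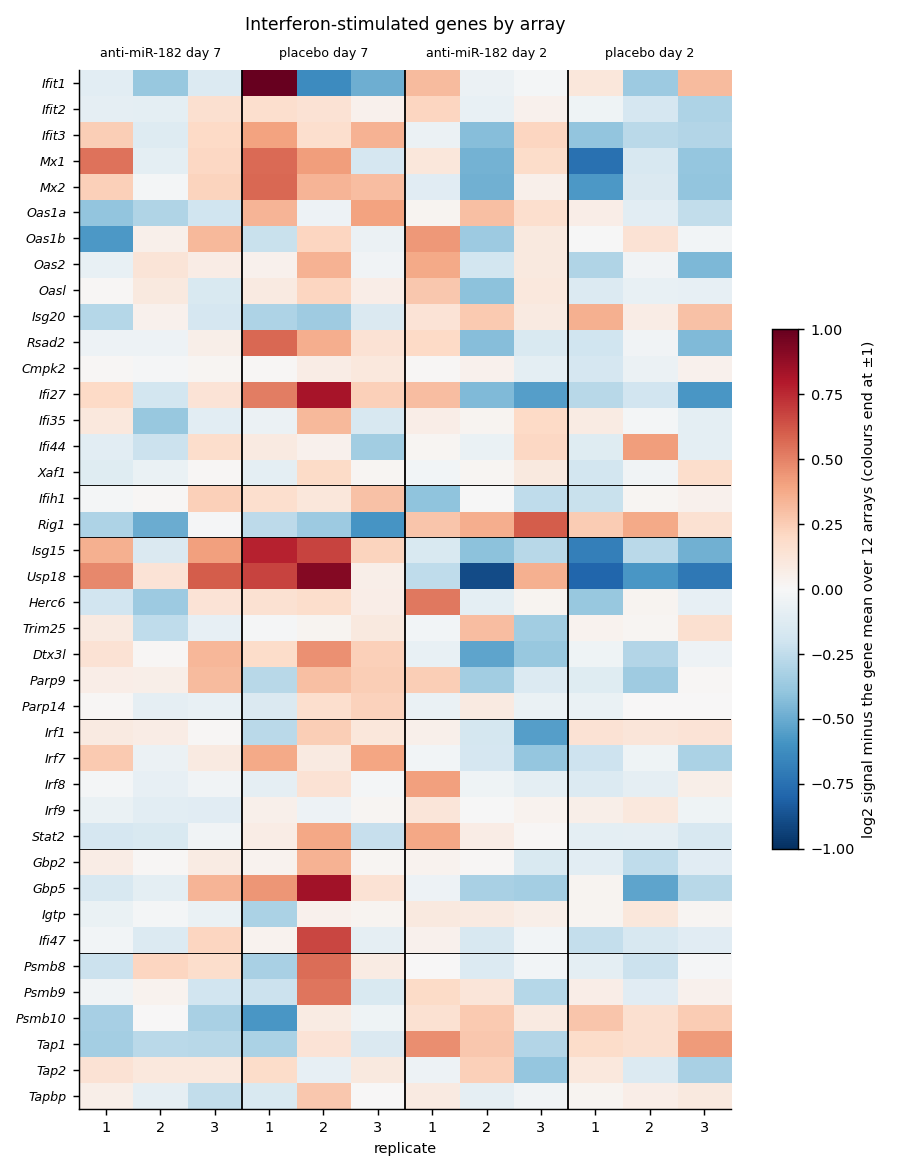
Log2 signal of 40 interferon-stimulated genes on 12 arrays, each gene shown minus its own mean, with replicates 1 to 3 of each group side by side and black lines between functional groups. Placebo day 7 replicate 2 is the highest day 7 array for 20 members and replicate 1 for 9.

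Leukocyte markers also differed between these arrays. As a list score, the mean log2 of a list minus that of all genes, 15 macrophage markers gave 1.20, 1.17 and 1.31 under anti-miR-182 and 1.10, 2.18 and 1.39 under placebo at day 7. The 13 T and NK cell markers gave -0.52, -0.54 and -0.52 under anti-miR-182, against -0.64, 0.07 and -0.33 under placebo. The 7 genes listed as neutrophil markers ranged from -1.53 to -1.40 under anti-miR-182 and from -1.59 to -0.60 under placebo. They include Ly6g6c, which is a different gene from Ly6g. Their mean log2 signal at day 7 was weak, 4.82 to 5.05 apart from placebo replicate 2 (5.86). The first quartile over the genes tested was 5.47. In each of these lists placebo replicate 2 was the highest array of day 7 and placebo replicate 1 the lowest. Summed on the linear scale, the macrophage markers ranged from 4525 to 5189 under anti-miR-182 and from 4428 to 8225 under placebo, and the T and NK cell markers from 964 to 997 and from 847 to 1837. The macrophage scavenger receptor Cd163 read 5.11, 7.35 and 5.14 under placebo. At day 7, 14 of 15 macrophage markers and 10 of 13 T and NK cell markers had differences below 0, against 50.2% of all genes, and 0 passed. These marker counts were not recomputed without placebo replicate 2. Of the 4 markers of B and plasmacytoid dendritic cells, 5 of endothelium and 8 of tubules, 0 passed as well, and at an unadjusted p under 0.05 there was 1 marker of B and plasmacytoid dendritic cells higher and 1 of endothelium lower at day 7. The endothelial score ranged from 1.22 to 1.37 under anti-miR-182 and from 1.24 to 1.52 under placebo at day 7.

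Without placebo replicate 2, Oas1a, Rsad2 and Ifi27 differed at day 7 by -0.67, -0.38 and -0.33, and Gbp5 by -0.26. At day 2, anti-miR-182 replicate 1 had the highest macrophage score (0.80) and T and NK cell score (-0.69) of that day. Without it, 21 members lay above 0 and 19 below, with a median of 0.01. What part leukocyte content had in the members' levels was not tested.

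**Figure D4:**
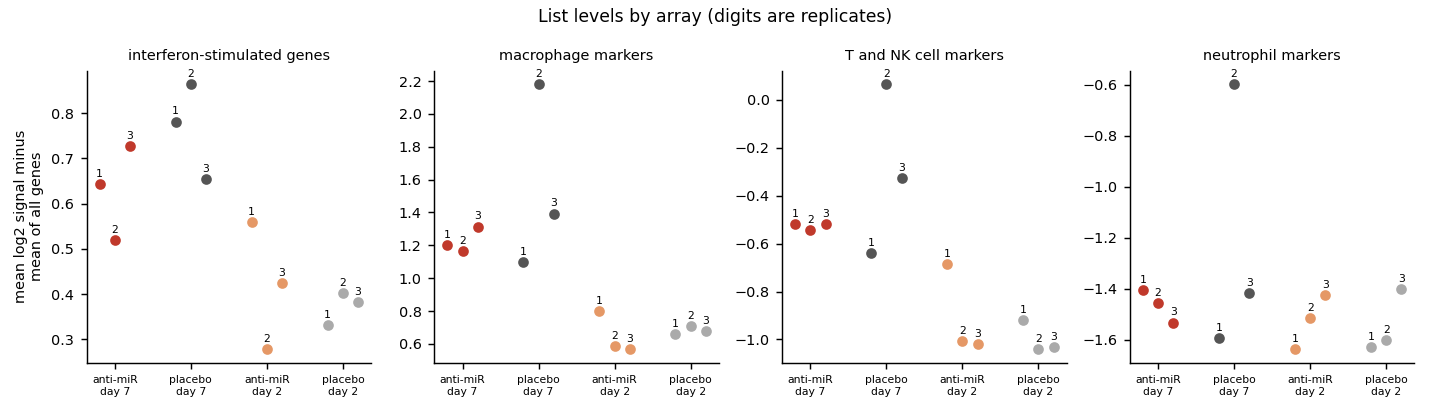
Mean log2 signal of a gene list minus the mean of all genes, for 40 interferon-stimulated genes, 15 macrophage, 13 T and NK cell and 7 neutrophil markers. Each point is an array and each digit its replicate number. Placebo day 7 replicate 2 is the highest array in all 4 panels, at 0.86 for the interferon-stimulated genes and 2.18 for the macrophage markers.

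The second comparison set day 7 against day 2 within each treatment. In placebo kidneys 12 of 40 members passed, against 28% of all genes: 10 rose and 2 fell, against 4.22% of all genes that rose and 23.7% that fell. All genes had a median of -0.18 and the members 0.20, so the members stood 0.38 above all genes on the log2 scale. With arrays centred on their median, the shift of all genes was -0.03 and 16 members passed, 14 higher and 2 lower, against 8.15% of all genes higher and 9.62% lower. With quantile normalization 18 passed, 17 higher and 1 lower, against 8.14% and 7.9% of all genes. Higher without overlap were 15 members, against 8.38% of all genes, and lower without overlap 4, against 40%.

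Of the 7 ISG15, ubiquitin and ADP-ribose enzymes, 3 rose in placebo kidneys, and Herc6, Trim25, Parp9 and Parp14 did not pass. Usp18 read 7.53, 7.77 and 6.91 at day 7, against 6.06, 6.27 and 6.13 at day 2. All day 7 arrays were above all day 2 arrays, and Usp18 rose by 1.25 ± 0.27 (limma adjusted p = 0.0048). The second Usp18 row read 6.87, 6.75 and 6.65 at day 7 and 6.06, 6.39 and 6.21 at day 2 in placebo, also without overlap. Isg15 read 7.39, 7.29 and 6.84 at day 7, against 5.93, 6.35 and 6.13 at day 2. It rose by 1.03 ± 0.18 (adjusted p = 0.0014). Dtx3l read 7.04, 7.31 and 7.10 at day 7 and 6.82, 6.57 and 6.81 at day 2, and rose by 0.42 ± 0.14 (adjusted p = 0.039). Dtx3l did not pass when any 1 of the 6 placebo arrays, or anti-miR-182 day 7 replicate 1, was left out.

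Of the antiviral effectors, 5 of 16 rose and 1 fell in placebo kidneys. Ifi27 read 10.29, 10.60 and 10.02 at day 7, against 9.50, 9.59 and 9.19 at day 2, and rose by 0.88 ± 0.21 (adjusted p = 0.0092). Mx2 read 7.81, 7.58 and 7.55 at day 7 and 6.67, 7.10 and 6.85 at day 2, and rose by 0.78 ± 0.15 (adjusted p = 0.0032). For both genes the days did not overlap. Mx1 read 8.005, 7.85 and 7.27 at day 7, against 6.69, 7.28 and 7.05 at day 2. It rose by 0.70 ± 0.23 (adjusted p = 0.036) with 1 array of overlap, and did not pass without placebo day 7 replicate 1 or 2 or placebo day 2 replicate 1 or 3 (0.54 to 0.73, adjusted p 0.075 to 0.14). Rsad2 rose by 0.59 ± 0.16 (adjusted p = 0.017) and Ifit3 by 0.62 ± 0.15 (adjusted p = 0.010). Rsad2 did not pass without placebo day 7 replicate 1 or placebo day 2 replicate 3. Ifit3 read 7.31, 7.07 and 7.25 at day 7 and 6.51, 6.64 and 6.61 at day 2.

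Gbp5 read 7.12, 7.51 and 6.82 at day 7, against 6.70, 6.15 and 6.40 at day 2 in placebo. It rose by 0.73 ± 0.19 (adjusted p = 0.013), and the adjusted p was 0.054 without placebo day 7 replicate 2 and 0.062 without placebo day 2 replicate 2. Irf7 read 6.63, 6.35 and 6.66 at day 7 and 6.05, 6.21 and 5.94 at day 2, and rose by 0.48 ± 0.14 (adjusted p = 0.019). Irf7 did not pass without placebo day 2 replicate 1 or 3, or without placebo day 7 replicate 1 or 3. No other transcription factor or GTPase passed. None of the 6 genes of the immunoproteasome and peptide loading passed, with differences between -0.41 (Psmb10) and 0.21 (Psmb8). 

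Rig1 and Isg20 fell in placebo kidneys. Rig1 read 8.37, 8.26 and 8.04 at day 7, against 8.89, 9.01 and 8.78 at day 2, and fell by 0.67 ± 0.14 (adjusted p = 0.0050), or by 0.36 with quantile normalization, where it did not pass (adjusted p = 0.089). Isg20 read 6.04, 5.99 and 6.20 at day 7 and 6.70, 6.42 and 6.64 at day 2, and fell by 0.51 ± 0.12 (adjusted p = 0.0085). Isg20 passed under both rescalings. Under anti-miR-182 Isg20 read 6.06, 6.39 and 6.18 at day 7 and 6.49, 6.61 and 6.44 at day 2, and did not pass (adjusted p = 0.076). Without placebo day 7 replicate 1, 6 members rose and 3 fell, with Ifit1 among the falls, against 3.73% and 16.3% of all genes. Without placebo day 2 replicate 3, 6 members rose and 2 fell, against 2.5% and 15.7% of all genes. Usp18, Isg15, Ifi27, Mx2 and Ifit3 passed as rises whichever of the 12 arrays was left out.

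**Figure D5:**
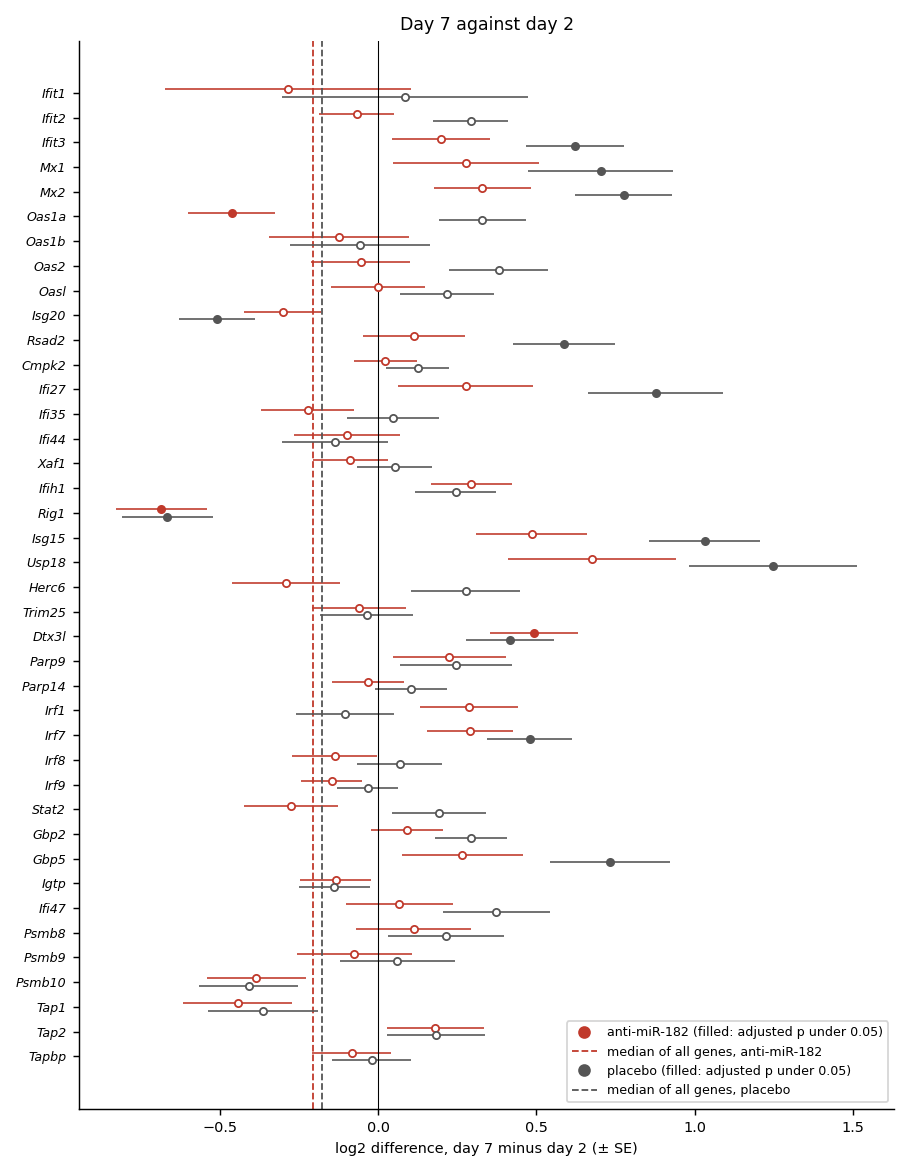
Log2 difference, day 7 minus day 2, of 40 interferon-stimulated genes under anti-miR-182 (red) and placebo (grey), with standard errors. Filled points passed an adjusted p under 0.05, 3 under anti-miR-182 and 12 in placebo, and dashed lines mark the median of all genes (-0.21 and -0.18).

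Under anti-miR-182, 3 of 40 members passed between the days, against 27.5% of all genes: 1 rose and 2 fell, against 2.68% and 24.9% of all genes. All genes had a median of -0.21 and the members -0.04. Dtx3l read 7.005, 6.87 and 7.19 at day 7, against 6.78, 6.33 and 6.48 at day 2, and rose by 0.49 ± 0.14 (limma adjusted p = 0.020), and did not pass without anti-miR-182 day 2 replicate 2 or day 7 replicate 1 or 3. Oas1a read 6.20, 6.30 and 6.40 at day 7 and 6.62, 6.90 and 6.77 at day 2. It fell by 0.46 ± 0.14 (adjusted p = 0.024), and did not pass without anti-miR-182 day 2 replicate 2 or day 7 replicate 1 or 2 (adjusted p 0.052 to 0.090). Rig1 read 8.32, 8.13 and 8.62 at day 7, against 8.90, 8.99 and 9.23 at day 2, and fell by 0.69 ± 0.14 (adjusted p = 0.0044).

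The calls under anti-miR-182 depended on the scaling. With arrays centred on the median, Oas1a and Rig1 fell by 0.28 and 0.50 and did not pass (adjusted p = 0.20 and 0.057). Under both that setting and quantile normalization, 5 members passed and all 5 were higher: Ifih1, Isg15, Dtx3l, Irf1 and Irf7. Of all genes 6.23% were then called higher and 7.44% lower with centring, and 7.22% and 7.62% with quantile normalization. Without anti-miR-182 day 2 replicate 2 or day 7 replicate 1, 1 member passed, Rig1, and without day 7 replicate 3, 2 passed, Oas1a and Rig1. In the same order, 1.96%, 1.88% and 1.65% of all genes were called higher and 14.9%, 15.8% and 16.1% lower. Isg15 read 6.97, 6.48 and 7.03 at day 7 and 6.47, 6.21 and 6.34 at day 2, a difference of 0.49 ± 0.18 (adjusted p = 0.053). Usp18 read 7.34, 6.99 and 7.46 at day 7, against 6.59, 5.96 and 7.21 at day 2, a difference of 0.68 ± 0.27 (adjusted p = 0.072). Both were above 0 without passing. Ifi27 read 9.97, 9.59 and 9.91 at day 7 and 10.09, 9.33 and 9.22 at day 2, a difference of 0.28 ± 0.21. Mx2 read 7.48, 7.23 and 7.46 at day 7, against 7.13, 6.76 and 7.30 at day 2, a difference of 0.33 ± 0.15. Gbp5 read 6.52, 6.58 and 7.01 at day 7 and 6.62, 6.35 and 6.34 at day 2, a difference of 0.27 ± 0.19. All 3 overlapped between days under anti-miR-182. Whether the change with time differs between treatments is the interaction given above, in which 0 members passed.

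In placebo kidneys 7 of 15 macrophage markers and 6 of 13 T and NK cell markers were called higher at day 7 than at day 2, against 4.22% of all genes. Under anti-miR-182, 3 and 1 of them were called higher, against 2.68% of all genes. Their part in the members' rises was not tested.

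Of 38 other genes of the interferon pathway, 0 passed with treatment at day 7 or day 2, as did 0% of all genes. At an unadjusted p under 0.05, 1 was lower and 0 higher on each day. Of all genes 1.66% were lower and 1.61% higher by that rule at day 7, and 2.41% and 4.2% at day 2. Of the ligands and receptors, Ifnlr1, the type III receptor chain, read 5.53, 5.36 and 5.69 under anti-miR-182, against 5.71, 5.87 and 5.88 under placebo at day 7. It was lower without overlap, as were 3.75% of all genes, and the difference was -0.30 ± 0.13 (unadjusted p = 0.045). Ifnl3, a type III interferon, differed by 0.34 ± 0.17 at day 7 and 0.35 ± 0.17 at day 2. Sting1, the adaptor of cytosolic DNA sensing, read 6.04, 6.46 and 6.40 under anti-miR-182 and 6.33, 7.24 and 6.56 under placebo at day 7, a difference of -0.41 ± 0.20. Jak2, a kinase of the type II receptor, read 7.81, 7.93 and 7.97 under anti-miR-182, against 8.14, 8.25 and 8.26 under placebo at day 2. Jak2 was thus lower without overlap, as were 4.24% of all genes, with a difference of -0.31 ± 0.15 (unadjusted p = 0.049). Trex1, a DNase, differed by 0.18 ± 0.13 at day 7, and Samhd1, a dNTP hydrolase, by -0.19 ± 0.12 at day 2. Cxcl10 and Cxcl9, chemokines that draw T cells, differed by -0.38 ± 0.27 and -0.28 ± 0.28 at day 7.

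Between the days, 9 of these 38 genes passed under anti-miR-182 (1 rose and 8 fell) and 7 in placebo (1 rose and 6 fell). Of all genes 27.5% passed under anti-miR-182 (2.68% rose and 24.9% fell) and 28% in placebo (4.22% rose and 23.7% fell). With arrays centred on the median the counts were 2 higher and 2 lower under anti-miR-182 and 5 higher and 3 lower in placebo. Of all genes 6.23% were then called higher and 7.44% lower under anti-miR-182, and 8.15% and 9.62% in placebo. Cxcl11 and Ifng fell in both treatments under each of these scalings, quantile normalization included. Cxcl11, a chemokine of the same receptor as Cxcl9 and Cxcl10, read 6.69, 6.9996 and 6.95 at day 7 and 8.03, 8.43 and 8.46 at day 2 under anti-miR-182. In placebo it read 6.95, 7.11 and 6.41 at day 7, against 8.37, 8.27 and 8.46 at day 2. Every day 7 array was below every day 2 array, which in placebo held for 40% of all genes. Cxcl11 fell by 1.43 ± 0.17 under anti-miR-182 (limma adjusted p = 0.00021) and fell by 1.55 ± 0.17 in placebo (adjusted p = 0.00012).

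Ifng, the type II interferon, read 4.74, 4.52 and 4.39 at day 7 and 5.32, 5.21 and 5.21 at day 2 under anti-miR-182, and fell by 0.70 ± 0.11 (limma adjusted p = 0.0010). In placebo it read 4.39, 4.44 and 4.55 at day 7, against 5.31, 5.22 and 5.33 at day 2, and fell by 0.82 ± 0.11 (adjusted p = 0.00033). All of these Ifng values are weak signals, below the first quartile of log2 signal over the genes tested (5.47). Nlrc5, the activator of MHC class I genes, fell by 0.68 ± 0.13 in placebo (adjusted p = 0.0028) and passed there under both rescalings too. Under anti-miR-182 Nlrc5 fell by 0.41 ± 0.13, and after centring it did not pass (adjusted p = 0.20). The falls of the inhibitors Ptpn2, a JAK phosphatase, and Pias1, a SUMO ligase, did not pass in either treatment after centring. Those of Ifnlr1, Irf5 and B2m under anti-miR-182 and of Ifnk in placebo did not pass then either.

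Tlr7, an endosomal sensor of single-stranded RNA, rose in placebo kidneys by 0.92 ± 0.18 (limma adjusted p = 0.0034), with 7.0004, 7.78 and 7.37 at day 7 and 6.10, 6.60 and 6.67 at day 2. Under anti-miR-182 it read 7.09, 7.21 and 7.38 at day 7 and 6.76, 6.75 and 6.83 at day 2. That difference of 0.44 ± 0.18 did not pass as deposited (adjusted p = 0.085) and passed under both rescalings. Ifna1, a type I interferon, rose under anti-miR-182 by 0.51 ± 0.18 (adjusted p = 0.047) and passed under both rescalings too. There it read 4.34, 4.30 and 4.20 at day 7 and 3.51, 4.18 and 3.62 at day 2. These are weak signals, since the first quartile of log2 signal over the genes tested was 5.47. In placebo Ifna1 did not pass as deposited and was called higher under both rescalings, so its rise was not particular to anti-miR-182. Whether any of these genes changed differently with time in the 2 treatments was tested by the interaction, in which 0% of all genes passed.

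Members with and without ISRE letters in the promoter window had the same median treatment difference at day 7, -0.12, over 20 and 13 members. Between the days in placebo, 6 of the 20 with the letters rose and 1 fell, and 1 of the 13 without them rose. Of all genes 4.22% rose and 23.7% fell. The medians of members with and without the letters were 0.20 and 0.13. Isg15, Usp18 and Mx2, which rose, and Rig1, which fell, had no promoter entry and stood in neither class. Oas1a and Oas1b, whose windows hold the same GAS and ISRE letters as printed above, differed by -0.53 ± 0.14 and -0.05 ± 0.22 between treatments at day 7.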

How the data were processed

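RNA of 12 rat kidneys was measured on 1-colour arrays. Per the labels' protocols, total RNA was extracted with Trizol, and 200 ng per sample was amplified and labelled with biotin. The authors deposited log2 signals made with RMA (version not given), per the submitters' processing notes; they were used unchanged. Of the annotated rows, 18511 had 1 symbol and 575 several. Rows with 1 symbol gave 18166 genes, each represented by its row with the highest mean. Group means were estimated with limma 3.58.1 (R 4.3.3, eBayes), and each of the 6 comparisons was adjusted over all genes by Benjamini-Hochberg, at 0.05. Scripts were checked on simulated data with known differences. The number of arrays, 3 per group, limits the precision. The p-values set a difference of group means against the spread between arrays within groups, moderated over all genes. Alternatives were fits by day, a prior with an intensity trend or with robust estimation, weighted arrays, arrays rescaled by quantiles or centred on their medians, filters that removed the lowest 25% or 50% of genes by mean, averaged rows per gene, a threshold of 0.1, and omission of each array. Values on every array were printed for Oas1a, Isg15 and Usp18, the 5 members of smallest unadjusted p per direction and day, and the largest called changes between days; others were chosen after their values were seen. Members and lists were chosen with earlier results of these data known. Promoters came from RefSeq (GRCr8).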

Additional observations from a re-analysis of the deposited data

How the results depend on the processing

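In the comparisons of treatments, and in their difference between days, 0 members passed under every alternative run, including those that left out each array in turn. The members' median ranged from -0.153 to -0.0324 at day 7 and from 0.0124 to 0.113 at day 2 when single arrays were left out. For day 7 against day 2 under anti-miR-182, 3 members passed as reported (27.5% of all genes), and 9 at an adjusted p under 0.1. The share of all genes under 0.1 was not computed. With array weights 9 passed, 4 higher and 5 lower, against 2.58% and 29% of all genes. With quantile normalization 5 passed and with centred arrays 5, all of them higher, against 7.22% and 6.23% of all genes called higher. With single arrays left out 1 to 5 passed, against 1.65% to 2.83% of all genes called higher and 14.9% to 25.1% called lower. In placebo 12 passed as reported (28% of all genes) and 8 to 13 with single arrays left out. Of all genes 2.49% to 4.79% were then called higher and 14.7% to 27% lower. Over all 40 members, those below 0 numbered 24 at day 7 without placebo replicate 2 and 19 at day 2 without anti-miR-182 replicate 1, against 33 and 10 as reported. Among the members chosen by rule and recomputed singly, the sign of a treatment difference turned for 5. Leaving out single arrays gave -0.389 to 0.0425 for Usp18 at day 7, -0.13 to 0.165 for Parp9, -0.0238 to 0.11 for Tap2, -0.0882 to 0.0916 for Igtp, and -0.26 to 0.0662 for Trim25 at day 2, which stood at 0.0312 with array weights. The cause was not tested. No paired analysis was possible because the labels give the groups no shared replicate numbers. Precision is limited by 3 arrays per group, and signal over background was not analysed here.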
